A study of Mus musculus with 6 samples.

Results

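The genes described here are 50 genes of the NRF2 pathway and of oxidative stress defence, measured in cultured mouse embryonic fibroblasts that lacked or kept the chromatin regulator Ing1. A gene was included by its name, through probes annotated with that gene symbol alone, so the rule uses no measured value, though the list of names was drawn up with earlier results of these data known. Of the 50 genes, 44 had such a probe on the array, of 18069 genes in the whole series, and 42 could be tested, of 11893. Ggt1, Gsta1, Gstp1, Prdx5, Prdx6 and Ucp2 had no probe of 1 symbol, and Gsta3 and Sod3 had a probe but too few good spots for a test. Of the 42, 39 were good on all 6 arrays, 2 entered through the deficient and 1 through the wild-type cultures only. The cells were early-passage fibroblasts grown from embryos, 1 embryo per culture and 1 array per culture. In the 3 Ing1-deficient cultures, named C4, C3 and B1, a gene-trap cassette sat in the Ing1 locus. The 3 wild-type cultures, from littermates, are named H2, H3 and I2. No treatment, embryonic age or strain is named in the labels, and whether the cultures were under stress is not known from them. The first letter of a culture's name never occurs in both genotypes, and its meaning is not stated, so whatever it marks cannot be told apart from genotype.

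NRF2, the product of Nfe2l2, is a transcription factor that the adaptor KEAP1 normally sends for degradation. Oxidants and electrophiles modify KEAP1, and NRF2 then binds antioxidant response elements with small MAF proteins and turns on genes for glutathione synthesis, conjugation, thioredoxin-dependent reduction, quinone reduction and iron handling. Glutathione and thioredoxin are the main carriers of reducing power against peroxides. Peroxiredoxins and glutathione peroxidases spend it, and reductases restore it at the cost of NADPH. Metallothioneins are small cysteine-rich metal-binding proteins under the control of the metal-sensing factor MTF1. In cultured fibroblasts these genes respond to oxygen tension and to added oxidants.

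The stretches of promoter below show where response element letters stand in members with different behaviour on the arrays. They are the 250 bases before the RefSeq start of 5 members, on the plus strand of GRCm38.p6. Capitals mark the antioxidant response element core, TGACNNNGC, and the AP-1 site, TGACTCA, each searched on both strands. The 2 motifs overlap where the core reads TGACTCAGC. Srxn1 and Prdx1 are shown because their arrays stood higher in every Ing1-deficient culture than in any wild-type culture, Mt2 because it holds the same core word as Prdx1, and Gstm5 and Sod1 because they hold 1 core word in common. They were chosen after their values were seen.
Srxn1, chr2:152105274-152105523: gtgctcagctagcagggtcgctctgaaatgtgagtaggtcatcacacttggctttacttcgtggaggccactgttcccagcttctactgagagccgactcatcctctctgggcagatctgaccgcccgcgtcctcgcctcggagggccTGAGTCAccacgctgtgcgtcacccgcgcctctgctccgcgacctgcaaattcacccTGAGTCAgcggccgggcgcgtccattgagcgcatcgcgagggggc
Prdx1, chr4:116685349-116685598: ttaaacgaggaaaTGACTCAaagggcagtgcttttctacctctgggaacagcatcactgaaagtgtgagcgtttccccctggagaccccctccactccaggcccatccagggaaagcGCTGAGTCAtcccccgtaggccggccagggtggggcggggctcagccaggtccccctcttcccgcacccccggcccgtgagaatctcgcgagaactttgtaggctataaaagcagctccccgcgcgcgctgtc
Mt2, chr8:94172368-94172617: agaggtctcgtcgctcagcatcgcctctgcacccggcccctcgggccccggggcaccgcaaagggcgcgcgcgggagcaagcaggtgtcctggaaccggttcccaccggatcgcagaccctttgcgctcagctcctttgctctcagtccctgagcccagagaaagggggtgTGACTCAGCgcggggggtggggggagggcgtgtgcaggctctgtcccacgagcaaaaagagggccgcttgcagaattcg
Gstm5, chr3:107895604-107895853: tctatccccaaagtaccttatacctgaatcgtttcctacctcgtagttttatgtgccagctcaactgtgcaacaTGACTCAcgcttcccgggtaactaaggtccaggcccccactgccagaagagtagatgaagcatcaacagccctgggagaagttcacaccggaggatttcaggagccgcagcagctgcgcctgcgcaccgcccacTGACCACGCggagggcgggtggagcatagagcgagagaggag
Sod1, chr16:90220512-90220761: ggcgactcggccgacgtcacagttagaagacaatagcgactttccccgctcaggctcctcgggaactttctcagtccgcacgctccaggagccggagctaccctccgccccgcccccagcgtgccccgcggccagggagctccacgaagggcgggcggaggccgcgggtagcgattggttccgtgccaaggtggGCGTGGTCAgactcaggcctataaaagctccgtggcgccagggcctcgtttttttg
Prdx1 and Mt2 held the identical core TGACTCAGC, at -133 and -79 from the start, and Gstm5 and Sod1 held the identical core TGACCACGC, at -42 and -56. Srxn1 held AP-1 letters at -102 and -45, and its match to the core, TGACCTAGC, lay after the start at 29. A RefSeq window of 300 bases, which adds 50 bases after the start, was found for 43 of the 50 members. The core was present in the windows of 12 of those 43 genes (27.9%), against 14.0% of 27025 genes with a window. AP-1 letters were present in 5 of the 43 (11.6%), against 5.95% of all genes. Counted by window, for genes with several starts, the core was in 14 of 61 member windows (23.0%) and in 12.4% of 32851 windows. These matches describe letters in a short window and are not binding sites shown by these data.

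The arrays read 34967 transcript probes each, with a good flag on 55.5% to 62.1% per array. Values are normalized intensities in units of each array's median transcript probe. Ing1 itself read 1.38, 0.930 and 1.39 in C4, C3 and B1, and 11.7, 11.4 and 11.1 in H2, H3 and I2, a log2 difference of -3.23 ± 0.19 (SE, limma adjusted p = 0.000287). Probe position relative to the cassette is not given, so the signal left in the deficient cultures has no further reading. On the first principal component, which held 55.8% of the variance, the wild-type array H3 lay at 5.8, between H2 and I2 at 52.5 and 34.6 and the deficient arrays at -39.2 to -26.0. All 9 measured fibroblast markers of a list of 10 were good on all 6 arrays, with summed levels of 742 to 779 in the deficient and 672 to 780 in the wild-type cultures. Thy1 and Lum of that list were higher in the deficient cultures, and its median log2 difference was 0.50. Of 8 measured macrophage markers, C1qa, C1qb and Mrc1 were higher in the deficient cultures, the summed level was 48.0 to 147 there and 21.2 to 46.7 in wild type, and Ptprc carried a low flag on all 6 arrays. Of 5 endothelial markers, Pecam1 and Cdh5 were low on all 6 arrays, and 0 of the 2 tested passed. The summed endothelial level was low but higher in each deficient culture, at 3.21 to 4.41 against 2.77 to 3.01 in wild type. The summed level of 5 skeletal muscle markers was 29.1 to 107 in the deficient cultures, highest in C4, and 32.9 to 47.8 in wild type. Of 3 tested hepatocyte markers 0 passed, with a median of -0.90 and summed levels of 2.57 to 15.4 against 4.36 to 19.4. In bulk RNA, more cells of a type and more RNA per cell cannot be told apart.

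Of the 42 tested members, 23 differed between genotypes by no more than their SD within genotype and 19 by more. The same split was not computed over all genes, so it marks no trait of the members. Few of the members passed a test. Srxn1 and Sesn3 rose, and 0 members fell, among them (limma, Benjamini-Hochberg adjusted p under 0.05 over all tested probes). Sesn3 did so on 1 of its 2 probes. The 2 that rose are 4.76% of the members, against 6.04% of all 11893 genes tested, and for lower calls the share over all genes was 1.61%. At an unadjusted limma p under 0.05, 5 members were higher (11.9%) and 1 lower (2.38%), against 19.9% and 8.24% of all genes. The 5 were Srxn1, Sesn3, Prdx1, Gsto1 and Hmox1, and the 1 lower was Gstm1. The labels' two-sample test, unadjusted and without a limit on the ratio, gave 4 higher (9.52%) and 1 lower (2.38%), against 16.2% and 5.84% of all genes. The arrays of the 2 genotypes did not overlap in 8 members that were higher in the deficient cultures and in 2 that were lower. Those are 19.0% and 4.76% of the members, against 23.6% and 9.85% of all genes. The labels' own selection was a ratio of means over 2 or under 0.5 with an unadjusted two-sample test. It took 1 member, Sesn3, as higher (2.38%) and 0 as lower, against 2.79% and 0.765% of all genes. Member shares were below those of all genes under these rules, which are overlapping cuts of the same values. Several shares rested on 0 to 2 members and lay near those of all genes. No test of the difference was made, so no shortfall of the members is read from it. The median log2 difference, deficient minus wild type, was 0.00 over the members, with 21 positive and 21 negative, and 0.07 over all genes tested.

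**Figure D1:**
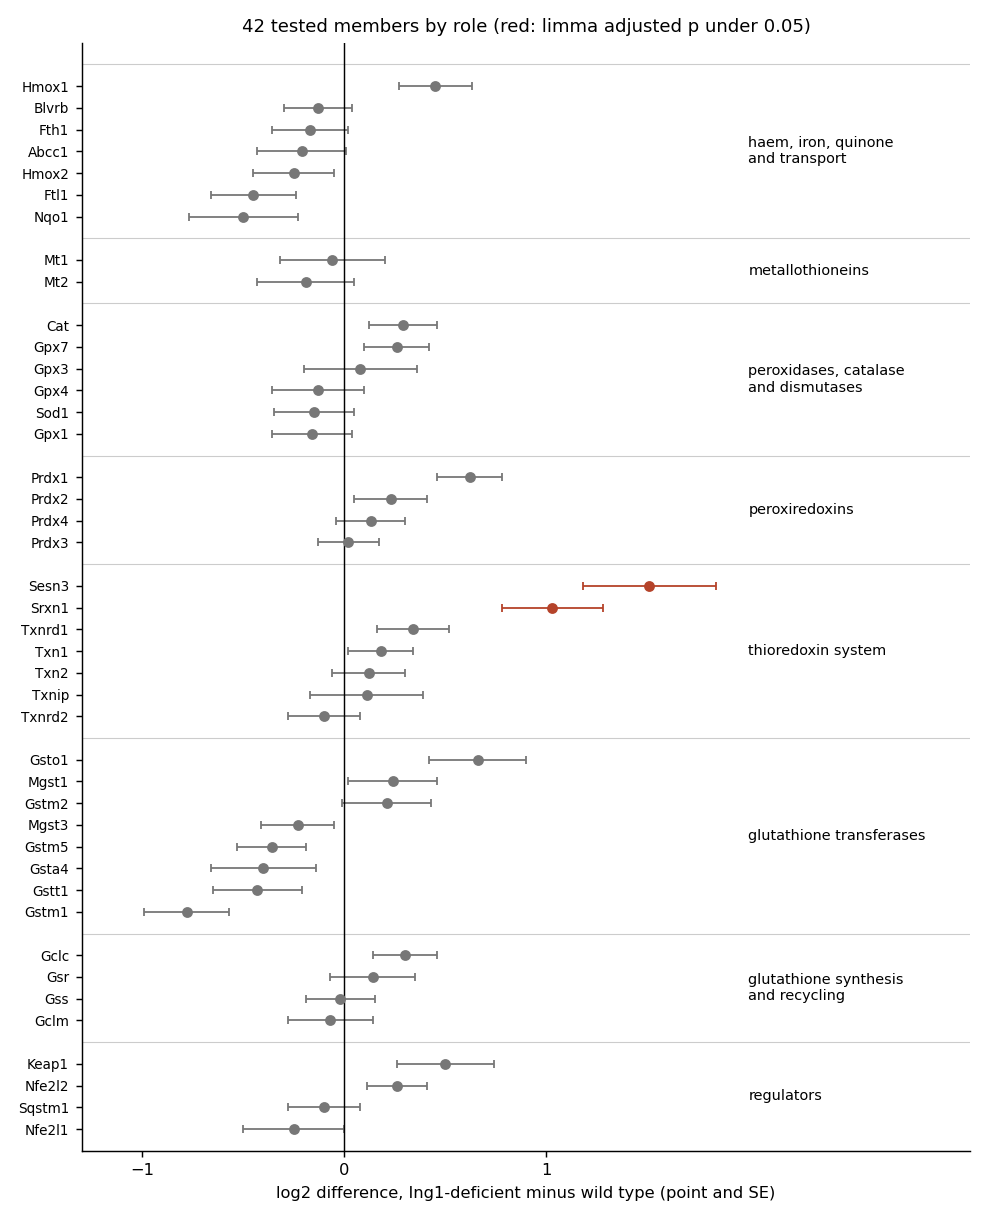
Log2 difference between Ing1-deficient and wild-type cultures for the 42 tested members, grouped by role, with points at the fitted difference and bars of 1 SE (3 arrays per genotype). Differences run from -0.78 for Gstm1 to 1.51 for Sesn3, and only Sesn3 and Srxn1, in red, passed the adjusted threshold. Sesn3 is drawn from its probe of higher mean, and its other probe stood at 0.01.

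The role groups differed in where their members lay. The thioredoxin system, in which the sestrin gene Sesn3 was listed, had 6 positive differences of 7 and a median of 0.18. The peroxiredoxins had 4 of 4 and also 0.18. Glutathione transferases had 3 positive and 5 negative differences with a median of -0.30. Genes of haem, iron, quinones and transport had 1 positive and 6 negative, with a median of -0.21. Genes of glutathione synthesis and recycling had a median of 0.06, glutathione peroxidases, catalase and dismutases -0.03, and the pair of metallothioneins -0.12. These medians are descriptions of 2 to 8 genes each and carry no test. The 95% confidence intervals quoted below are from the same limma fit, without adjustment over genes.

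The regulators at the head of the pathway did not pass the threshold in either direction (0 of 4). Keap1, the adaptor that holds NRF2 down, was at 12.2, 9.84 and 11.3 in C4, C3 and B1 and at 5.46, 10.3 and 8.68 in H2, H3 and I2. The groups overlapped, since H3 exceeded C3, and H2 was the lowest array. Its log2 difference was 0.50 ± 0.24 (adjusted p = 0.220), and 0.23 without H2. Nfe2l2, which encodes NRF2, was at 16.5, 16.7 and 15.1 in the deficient and 12.5, 13.0 and 14.8 in the wild-type cultures. Every deficient array was above every wild-type array, by a narrow margin between B1 and I2, and the difference was 0.26 ± 0.15 (adjusted p = 0.302). Nfe2l1, the relative of NRF2 that restores proteasome genes, was at 3.01, 6.24 and 4.39 against 5.26, 4.63 and 5.66. Its lowest and highest arrays, C4 and C3, were both deficient cultures, and the difference of -0.25 ± 0.25 (adjusted p = 0.574) became 0.02 without C4. Sqstm1, whose product p62 binds KEAP1 and is itself an NRF2 target, had a difference of -0.10 ± 0.18.

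Glutathione synthesis and recycling showed no member past the threshold (0 of 4). Gclc, the catalytic subunit of the rate-limiting ligase, was at 7.53, 5.98 and 7.07 in C4, C3 and B1 and at 5.90, 5.05 and 5.71 in H2, H3 and I2. The groups did not overlap, with C3 just above H2, and the log2 difference was 0.30 ± 0.16 (adjusted p = 0.268). Gclm, the modifier subunit of the same enzyme and a classic NRF2 target, was at 6.65, 3.92 and 4.42 against 4.76, 5.45 and 5.15. C4 was its highest array and the other deficient arrays its lowest, so the difference of -0.07 ± 0.21 (adjusted p = 0.865) averaged over a wide spread and was -0.30 without C4. The 2 subunits thus had different signs, and the interval of each included 0, from -0.06 to 0.66 for Gclc and from -0.55 to 0.40 for Gclm. Gsr, which reduces oxidised glutathione, was at 1.76, 2.92 and 2.49 against 1.87, 2.20 and 2.33, with an irregular spot in H2. Its difference was 0.14 ± 0.21 (adjusted p = 0.717), and that of Gss, the second enzyme of glutathione synthesis, was -0.02 ± 0.17.

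Glutathione transferases, which conjugate glutathione to electrophiles, held the lowest difference of all members. Gstm1, a cytosolic mu-class transferase, was at 14.4, 11.3 and 10.5 in C4, C3 and B1 and at 25.2, 21.0 and 16.3 in H2, H3 and I2. Every deficient array was below every wild-type array. The log2 difference was -0.78 ± 0.21 (95% interval -1.24 to -0.31), 1.71-fold higher in wild type, and narrowly missed the threshold (adjusted p = 0.0570). Gsto1, an omega-class transferase with thiol transferase and dehydroascorbate reductase activity, was at 28.6, 46.9 and 37.9 against 17.8, 28.0 and 25.6. The groups touched without overlapping, C4 being just above H3, and the difference was 0.66 ± 0.24 (adjusted p = 0.116). Among the deficient cultures the order of Gsto1, C3 over B1 over C4, was also the order of the summed macrophage markers, at 147, 76.2 and 48.0. In wild type it was not, since H2 had the highest sum, 46.7 against 32.3 in H3 and 21.2 in I2, and the lowest Gsto1. The part of those cells in the Gsto1 values was not tested. The other 6 tested transferases ran from -0.43 ± 0.22 for Gstt1, a theta-class enzyme, to 0.24 ± 0.22 for Mgst1, a membrane-bound one. Gstt1 was lower in every deficient array than in any wild-type array, but its wild-type mean rested on H3 at 7.98, against 4.95 in H2 and 4.70 in I2. The mu-class genes did not go one way, with Gstm2 at 0.21 ± 0.22 and Gstm5 at -0.36 ± 0.17. Mu-class transferases are close in sequence, so a probe of 1 may also read another, and their values are uncertain to that extent. Gsta3 carried a low flag on all 6 arrays.

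**Figure D2:**
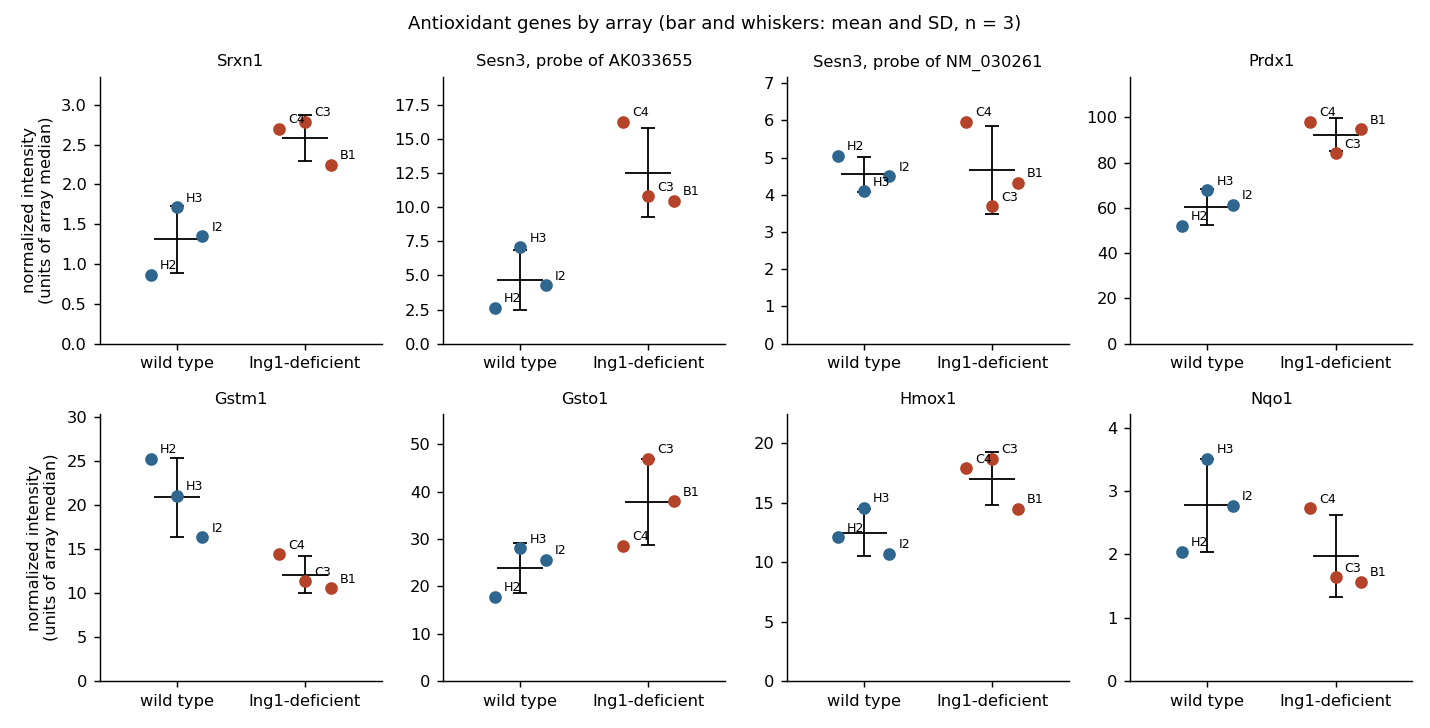
Normalized intensity of 7 members in each array, with both Sesn3 probes, as points named by culture, and the mean and SD of each genotype (n = 3) as bars. The deficient arrays lie above the wild-type arrays for Srxn1, Prdx1, Gsto1 and 1 Sesn3 probe and below them for Gstm1, while the other Sesn3 probe, Hmox1 and Nqo1 overlap.

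In the thioredoxin system, as listed here, 2 of 7 genes rose, Srxn1 and Sesn3, and 0 fell (0 also at an unadjusted limma p under 0.05). Sesn3 encodes a sestrin and stands in this group only by the role list used here. Over all genes the limma shares were 6.04% higher and 1.61% lower, or 8.24% lower unadjusted, and a group of 7 is too small to read against them. Srxn1 encodes sulfiredoxin, which reactivates peroxiredoxins that peroxide has overoxidised. It was at 2.70, 2.79 and 2.25 in the deficient arrays C4, C3, B1 and at 0.864, 1.71 and 1.35 in H2, H3 and I2. The deficient arrays lay close together, all above the highest wild-type culture. The means were 2.58 ± 0.291 and 1.31 ± 0.426 (SD, n = 3), a log2 difference of 1.03 ± 0.25 (SE; 95% interval 0.47 to 1.58) and a 2.04-fold rise (limma adjusted p = 0.0434). Leaving out C4, C3, B1, H2 or I2 ended the call, and leaving out H3 kept it, while the difference stayed between 0.76 and 1.25 over those 6 fits. In the fits that ended it, 0.0252% to 1.89% of all genes were called higher, against 6.04% with all arrays and 10.6% without H3.

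Sesn3 encodes sestrin 3, a FOXO-induced member of the stress-responsive sestrin family that acts on AMPK and mTORC1 signalling. The probe designed on AK033655 was at 16.3, 10.8 and 10.5 in C4, C3 and B1 and at 2.64, 7.06 and 4.29 in H2, H3 and I2. Every deficient array was above every wild-type array, and the log2 difference was 1.51 ± 0.33 (95% interval 0.76 to 2.27), a 2.86-fold rise (limma adjusted p = 0.0361). The second Sesn3 probe, on NM_030261, was at 5.97, 3.69 and 4.33 against 5.05, 4.10 and 4.50, with full overlap. Its difference was 0.01 ± 0.20 (95% interval -0.45 to 0.47, adjusted p = 0.981). The rise was therefore read by 1 of 2 probes, and the mean of both gave 0.76 with an adjusted p of 0.0704. C4 was the highest array for both Sesn3 probes and also for the summed skeletal muscle markers, at 107 against 29.1 to 53.1 in the other arrays, and the part of those cells was not tested. Without C4 the difference on the first probe was 1.31 and no longer passed, nor did it without C3, B1, H2 or I2 (1.16 to 1.62), and without H3 it was 1.87 and passed. The shares of all genes called in those fits are the ones given for Srxn1.

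The core of the thioredoxin system did not pass the threshold. Txn1, cytosolic thioredoxin, was at 182, 151 and 161 in C4, C3 and B1 and at 155, 129 and 151 in H2, H3 and I2. The groups overlapped and the difference was 0.18 ± 0.16 (adjusted p = 0.502). Txnip, which binds thioredoxin and is induced by glucose, was at 73.7, 130 and 141 against 136, 81.7 and 96.5. C4 was lowest and H2 was near the top, so the genotypes crossed (0.11 ± 0.28, adjusted p = 0.842). A second Txnip probe gave 16.1, 40.1 and 34.0 against 33.4, 18.7 and 23.5, with C4 again lowest and H3 next. Txnrd2, the mitochondrial thioredoxin reductase, was at 0.990, 0.967 and 0.858 against 0.870, 1.24 and 0.938, with a difference of -0.10 ± 0.18 (adjusted p = 0.760). Its cytosolic counterpart Txnrd1, an NRF2 target, stood at 0.34 ± 0.18 (adjusted p = 0.247), and mitochondrial thioredoxin, Txn2, at 0.12 ± 0.18.

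Peroxiredoxins, the thioredoxin-dependent peroxidases that sulfiredoxin repairs, were led by Prdx1. This abundant cytosolic peroxidase was at 98.2, 84.2 and 94.8 in the deficient arrays C4, C3, B1 and at 52.1, 67.9 and 61.4 in H2, H3 and I2. The groups were well apart, with the lowest deficient array above the highest wild-type array. The means were 92.4 ± 7.32 and 60.5 ± 7.94 (SD, n = 3), and the log2 difference of 0.62 ± 0.16 (95% interval 0.25 to 0.99) was 1.53-fold. It narrowly missed the threshold (limma adjusted p = 0.0568), and without H3 it passed (0.70, adjusted p = 0.0330), where 10.6% of all genes were called higher. Prdx2, another cytosolic peroxiredoxin, was at 197, 138 and 164 against 154, 124 and 143, with overlap and a difference of 0.23 ± 0.18 (adjusted p = 0.450). Prdx3, the mitochondrial member, was at 16.9, 17.0 and 20.0 against 18.5, 17.7 and 16.9. Its genotypes shared one range, and the 95% interval of its difference, -0.32 to 0.36, overlapped that of Prdx1, 0.25 to 0.99. The difference between the 2 genes was not tested. Prdx4, the member of the endoplasmic reticulum, stood at 0.13 ± 0.17.

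The glutathione peroxidases, catalase and dismutases had 0 of 6 tested members past the threshold. Cat, the peroxisomal enzyme that splits hydrogen peroxide, was at 37.4, 25.7 and 30.2 in C4, C3 and B1 and at 24.9, 25.1 and 25.5 in H2, H3 and I2. The wild-type arrays were nearly equal, and C3 lay just above them, with C4 and B1 higher still, and the difference was 0.29 ± 0.17 (adjusted p = 0.327). Gpx7, a peroxidase of the endoplasmic reticulum, was at 28.9, 23.7 and 22.7 against 19.2, 22.0 and 21.3. Its groups did not overlap, by a small margin, and the difference was 0.26 ± 0.16 (adjusted p = 0.337). Gpx1, the main cytosolic glutathione peroxidase, was at 68.4, 47.5 and 42.5 against 61.1, 53.9 and 58.4. C4 was highest and B1 lowest, so its range in the deficient cultures enclosed the wild-type values (-0.16 ± 0.20, adjusted p = 0.657). Gpx3, a secreted peroxidase, Gpx4, which reduces lipid hydroperoxides, and Sod1, the cytosolic dismutase, had differences of 0.08 ± 0.28, -0.13 ± 0.23 and -0.15 ± 0.20. Sod3, the secreted dismutase, was not tested, because C4 and C3 in the deficient and H3 and I2 in the wild-type cultures were its only good spots. Its values were 0.824, 3.37 and 1.56 against 0.335, 1.84 and 0.962.

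The metallothioneins differed less between genotypes than between cultures of 1 genotype. Mt1 was at 67.0, 59.0 and 46.2 in C4, C3 and B1 and at 74.8, 70.6 and 38.9 in H2, H3 and I2. Mt2 was at 7.87, 10.9 and 8.14 against 9.51, 14.1 and 7.77. I2 was the lowest array for both genes, and the groups overlapped in each. The log2 differences were -0.06 ± 0.26 for Mt1 (95% interval -0.65 to 0.54, adjusted p = 0.921) and -0.19 ± 0.24 for Mt2 (95% interval -0.73 to 0.35, adjusted p = 0.661). The metal response element core, TGCACNC or TGCGCNC on either strand, was found 3 times in the RefSeq window of Mt1 and 4 times in that of Mt2, where 7.11% of all windows held 2 or more.

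Genes of haem, iron, quinone and transport included the best-known NRF2 reporters, Hmox1 and Nqo1, and neither passed the threshold. Hmox1, the inducible haem oxygenase, was at 17.9, 18.7 and 14.5 in C4, C3 and B1 and at 12.1, 14.6 and 10.7 in H2, H3 and I2. Only B1 and H3 crossed, and the difference was 0.45 ± 0.18 (95% interval 0.05 to 0.86, adjusted p = 0.152). Hmox1 is also high in macrophages, whose summed markers were higher in each deficient culture. C3 was highest and I2 lowest for both the sum and Hmox1. The sum in C4, 48.0, was close to that in H2, 46.7, while Hmox1 was at 17.9 and 12.1. The part of those cells in the Hmox1 values was not tested. Nqo1, the quinone reductase often taken as the readout of NRF2, was at 2.73, 1.64 and 1.57 against 2.04, 3.51 and 2.77. Its C4 and B1 spots were flagged irregular, so Nqo1 entered the test only through the wild-type cultures, where its mean was higher. C4 lay within the wild-type range, and the difference was -0.50 ± 0.27 (95% interval -1.10 to 0.10, adjusted p = 0.267). No divergence of Hmox1 and Nqo1 is read from these 2 differences. Ftl1, ferritin light chain, was at 293, 215 and 216 against 397, 253 and 346. C4 exceeded H3, so the groups overlapped (-0.45 ± 0.21, adjusted p = 0.217). Fth1, ferritin heavy chain, was at 146, 122 and 109 against 175, 130 and 121, with a difference of -0.17 ± 0.19 (adjusted p = 0.634). Ferritin genes have many processed copies, and their probes may read those too. Hmox2, the constitutive oxygenase, Blvrb, a biliverdin reductase, and Abcc1, which exports glutathione conjugates, lay between -0.25 and -0.13.

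**Figure D3:**
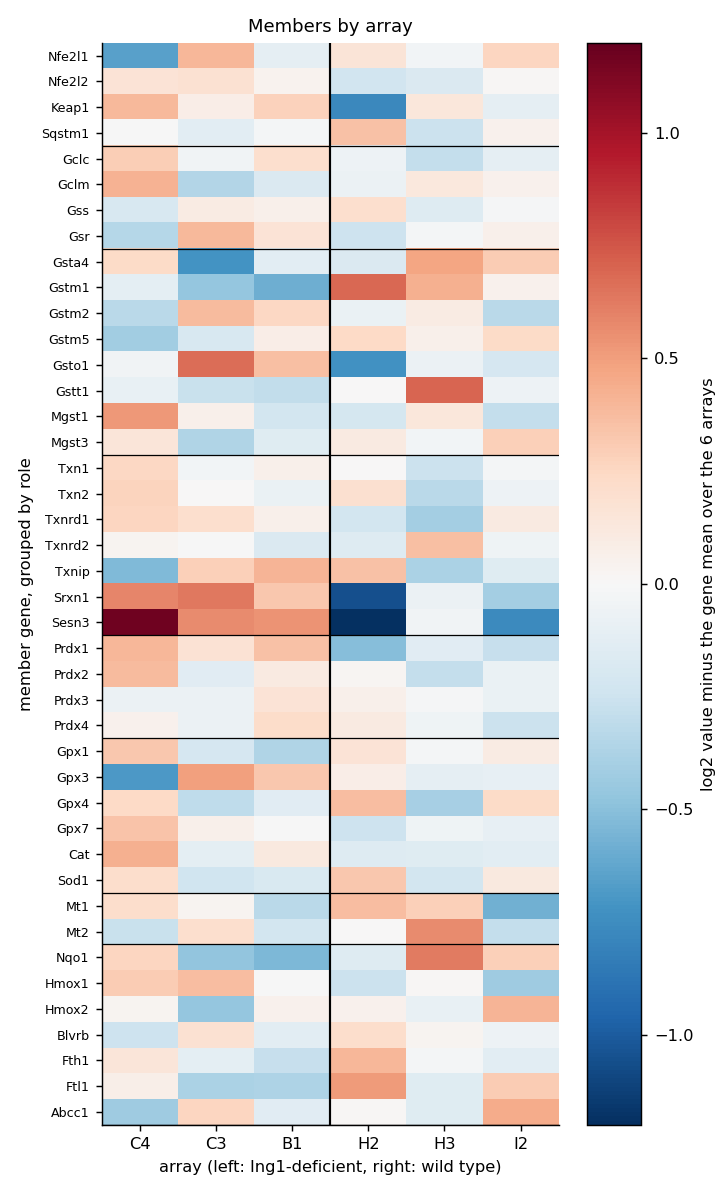
Log2 value of each of the 42 tested members in each array minus the gene's mean over the 6 arrays, on a colour scale from -1.2 to 1.2, with roles separated by lines and genotypes by the vertical line. Srxn1, Sesn3 and Prdx1 are the rows that turn from red to blue at the line, Gstm1 turns the other way, and single columns such as C4 depart from their own genotype in Nfe2l1, Txnip and Gpx3.

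Much of the variation of these genes lay between cultures of the same genotype. The median SD of log2 values within genotype was 0.27 over the members and 0.22 over all genes tested. C4 was the highest array for 13 of the 42 members and the lowest for 8, and H2 was the highest for 10 and the lowest for 8. Over all genes, C4 was highest in 33.4% and H2 in 24.1%. The median deviation of the members from their gene means was 0.16 in C4, 0.00 in C3 and B1, 0.01 in H2, -0.05 in H3 and -0.06 in I2. Over all genes tested it was 0.10 in C4, 0.02 in C3 and B1, 0.01 in H2, -0.08 in H3 and -0.02 in I2, so C4 stood high there too. For glutathione peroxidases, catalase and dismutases the same measure was 0.28 in C4, against -0.16 and -0.07 in the other deficient cultures and 0.12, -0.13 and 0.00 in wild type. For the thioredoxin system, Sesn3 included, it was 0.25, 0.20 and 0.06 in C4, C3 and B1 and -0.16, -0.26 and -0.06 in H2, H3 and I2. The deficient cultures were all above the wild-type ones there, but also, by a narrow margin, over all genes tested. The same held for glutathione synthesis and recycling, at 0.05, 0.03 and 0.11 against -0.06, -0.09 and 0.02, so the order is not particular to the thioredoxin system. For metallothioneins it was 0.43 in H3 and -0.43 in I2, both wild type. The SE of a member's difference was 0.15 to 0.33, with a median of 0.20.

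Promoter letters and array differences can be set side by side. The 9 tested members with the antioxidant response element core in their window had a median difference of 0.24, from -0.36 for Gstm5 to 1.03 for Srxn1, with 5 positive and 4 negative. The 28 tested members whose window lacked the core had a median of -0.04, with 13 positive and 15 negative, and they include Sesn3. For the 5 tested members without a window, Hmox1 among them, it was 0.14, with 3 positive and 2 negative. Over all genes tested the median was 0.07. The contrast between these groups was not tested, and elements outside the short window were not searched. Members that share a core word can be set side by side as well. With the core TGACTCAGC, Prdx1 stood at 0.62 ± 0.16 and Mt2 at -0.19 ± 0.24. With the core TGACCACGC, Gstm5 stood at -0.36 ± 0.17 and Sod1 at -0.15 ± 0.20.

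Which members passed depended on how the intensities were processed. The 10 other settings were counted with all arrays in, leaving out the series table, which holds the same values, and the letter block, which called 42.0% and 24.8% of all genes. Srxn1 passed under 4 of 10 and Sesn3 under 3 of 10, while Gstm1 passed as lower under 6 of 10 and Prdx1 as higher under 3 of 10. Over all genes, 0.0278% to 16.9% were called higher and 0.00555% to 8.66% lower under those 10 settings. With normexp background correction Srxn1 was at 0.40, against 1.03 as reported, and did not pass. That setting adds an offset of 50, where the median spot less background was 18.8 to 25.4 per array. An offset of that size shrinks the log2 differences of weak spots. With quantile normalization Gstm1 fell by 0.90 on the log2 scale and passed, and Srxn1, at 0.98, did not pass (limma). Signs of these 4 genes were the same under every setting run, with Srxn1 between 0.40 and 1.25, Sesn3 between 0.76 and 1.87, Prdx1 between 0.49 and 0.70, and Gstm1 between -0.94 and -0.63. Without H3 the adjusted p was lowest among the fits that left out 1 array for Srxn1, Sesn3, Prdx1 and Gstm1. That fit also called the largest share of all genes among them, 10.6% higher and 4.40% lower.

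**Figure D4:**
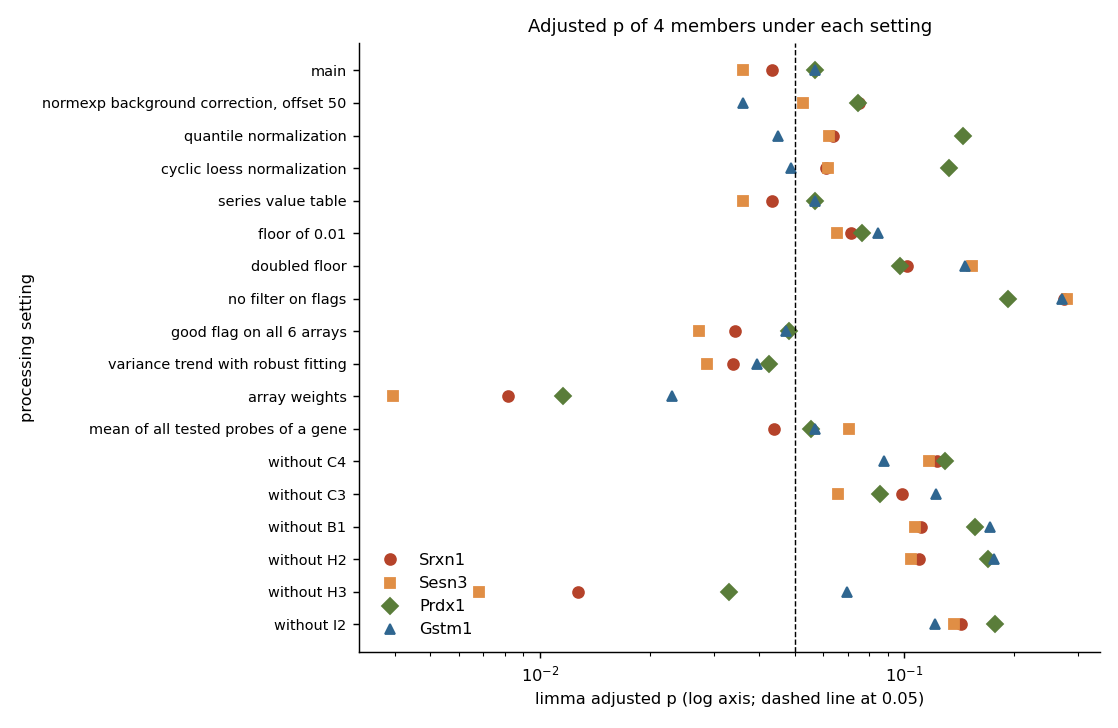
Limma adjusted p (log axis) of Srxn1, Sesn3, Prdx1 and Gstm1 in the fit as reported, labelled main, and under 17 other settings, with the threshold of 0.05 as a dashed line; the random block for the culture letter is left out. Points lie on both sides of the line for each gene, and Gstm1 is the leftmost under normexp, quantile and loess.

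Other genes of the pathway were looked up in a list of 90, which holds regulators of NRF2, NADPH enzymes, cystine transport, methionine sulfoxide repair, further transferases and iron genes. Of the 63 that could be tested, 56 were good on all 6 arrays and 3 entered only through the deficient cultures, Slc7a11 among them. Slc7a11, Msrb1 and Msrb2 rose, 4.76% against 6.04% of all genes, and 0 fell, with a median difference of 0.19. At an unadjusted limma p under 0.05, 18 of the 63 were higher, a larger share than the 19.9% of all genes. Lower were 4 of the 63, a smaller share than the 8.24% of all genes. Slc7a11, the cystine importer that feeds glutathione synthesis, was at 3.76, 1.29 and 3.09 in C4, C3 and B1 and at 0.578, 0.987 and 0.496 in H2, H3 and I2. All deficient arrays were above all wild-type arrays, C3 by the least. The log2 difference was 1.84 ± 0.38 (limma adjusted p = 0.0331), with H2 flagged low and I2 under the floor of 0.57. Slc7a11 entered the test only through its good spots in the deficient cultures, and its size depends on the floor, at 1.91 with a floor of 0.01 and 1.11 with a doubled floor. Msrb2, a mitochondrial methionine sulfoxide reductase, was at 3.77, 3.66 and 3.44 against 0.663, 1.84 and 1.31. Its deficient arrays were nearly equal and all above H3, the highest wild-type array, and the difference was 1.63 ± 0.32 (adjusted p = 0.0307). Msrb1, the selenoprotein of the same repair family, was at 12.3, 15.1 and 13.3 against 8.19, 8.67 and 8.53. Both genotypes were tight and well apart (0.67 ± 0.15, adjusted p = 0.0367). Of the 63 genes, 23 had all deficient arrays above all wild-type arrays, a larger share than the 23.6% of all genes. For 2 of the 63 they were all below, a smaller share than the 9.85% of all genes. These contrasts were not tested. By the same count of other settings Msrb2 passed in 7 of 10, Slc7a11 in 5 of 9 and Msrb1 in 4 of 10. With normexp, whose offset of 50 shrinks the differences of weak spots, Slc7a11 was at 0.67 and did not pass, and Msrb2, at 0.69, passed. Leaving out H3 kept all 3 calls, and leaving out C3 kept that of Slc7a11 (2.31). Leaving out C4, B1, H2 or I2 ended all 3, with Slc7a11 at 1.54 to 1.72, Msrb2 at 1.22 to 1.71 and Msrb1 at 0.65 to 0.74. Those fits called 0.0252% to 0.244% of all genes higher, against 1.89% without C3 and 10.6% without H3.

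**Figure D5:**
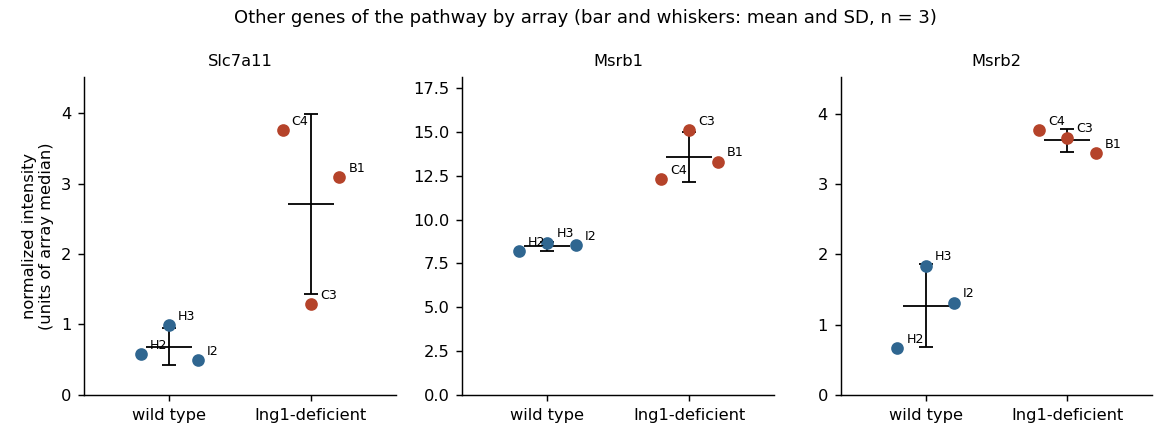
Normalized intensity of Slc7a11, Msrb1 and Msrb2 in each array, as points named by culture, with the mean and SD of each genotype (n = 3). The 3 deficient arrays lie above the 3 wild-type arrays in each panel, with C3 nearest to wild type for Slc7a11.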

How the data were processed

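Total RNA was labelled with biotin and hybridised to 1-colour CodeLink arrays, 1 culture per array, per the labels. Spot quantification by the authors used version 4.1.0.29054 of the CodeLink software, per the file headers. Their deposited intensity equals spot mean less local background over the array's median transcript probe, as worked out from the values. The series table holds the same deposited intensity (209018 of 209018 values equal). Values under 0.57 were set to 0.57 before log2, and masked spots were missing. A probe was tested if its flag was good on the 3 arrays of at least 1 genotype, with limma 3.58.1 (lmFit, eBayes, two-sided, R 4.3.3) and Benjamini-Hochberg adjustment over all of them, checked on simulated data. A gene stands for its tested probe with the highest mean.

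Symbols came from the platform annotation, and promoter windows from RefSeq (GRCm38.p6). Members and lists were chosen with earlier results of these data known. Values per array are given for members past the threshold, the 2 lowest p values, the highest and lowest difference in each role group, and the 5 most intense. Precision is limited by the 3 cultures per genotype.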

Additional observations from a re-analysis of the deposited data

How the results depend on the processing

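The members past the threshold, 2 higher and 0 lower, changed with the processing, and the cause was not tested. They were 0 higher and 1 lower under normexp, quantile or cyclic loess normalization. Over all genes, 2.56% to 2.82% were higher there and 0.900% to 1.53% lower, against 6.04% and 1.61% as reported. With a floor of 0.01, a doubled floor or no filter on flags 0 passed. Of all genes, 0.0278% to 1.19% were higher under those settings and 0.00555% to 0.311% lower. With a good flag on all 6 arrays or a variance trend with robust fitting, 3 members were higher and 1 lower. Array weights gave 5 higher and 3 lower, with 16.9% and 8.66% of all genes called. The mean of all probes gave 1 higher, with 5.82% of all genes called higher. The labels' two-sample test with its ratio gave 1 higher (2.79% of all genes), or 0 after Benjamini-Hochberg adjustment. The culture letter as a random block gave 15 higher and 8 lower, with 42.0% and 24.8% of all genes called, at an estimated correlation of -0.89. Fits that left out 1 array gave 0 to 3 higher. Without C4, C3, B1, H2 or I2 there were 0, and only 0.0252% to 1.89% of all genes were called higher. Without H3 there were 3, with 10.6% of all genes called higher, against 6.04% with all arrays. The wider pathway genes, 3 higher and 0 lower and not planned as a sensitivity result, were 1 and 1 under normexp, 0 higher with either floor or no filter, 5 and 1 with the variance trend, 14 and 6 with array weights, 32 and 13 with the letter block, and 0 to 7 higher without 1 array.

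The median of all members moved to -0.10 (quantile) and 0.09 (array weights). That of regulators moved to -0.01 (normexp, loess) and -0.03 (quantile), that of glutathione synthesis to 0.00 (normexp, quantile) and -0.02 (good on all 6 arrays), that of transferases to -0.42 (quantile), and that of haem, iron, quinone and transport to -0.35 (array weights). Medians that turned sign within 1 SD were that of metallothioneins, 0.15 with array weights and 0.06 without H3, and that of glutathione peroxidases, catalase and dismutases, 0.08 with no filter on flags or without H2. Without 1 array the medians ran from -0.01 to 0.13 for regulators, 0.03 to 0.15 for glutathione synthesis, -0.30 to -0.13 for transferases and 0.10 to 0.32 for the thioredoxin system. The labels name no slide or scan batch, and each slide holds 1 array, so that block was not run. The genotypes share 1 replicate number, 3, so no paired analysis was possible.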
